A study of Oryza sativa with 12 samples.

Results

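The 7 genes described here are members of the rice (Oryza sativa) SPL family, the SQUAMOSA PROMOTER BINDING PROTEIN-LIKE transcription factors: SPL14, SPL17, SPL7, SPL13, SPL16, SPL3 and SPL12. They were chosen by locus number out of 38867 genes in the table of the shoot apical meristem, and each was kept because the table's symbol or description names it as an SPL factor. The other 12 genes of the 19-gene family serve as their closest comparison. RNA-seq libraries came from a rice myb110 mutant and from wild-type plants (WT). MYB110 is a MYB transcription factor, which the series places between Nhd1 and MADS15 in a module that controls flowering time, and the labels do not describe the mutant allele. Tissue was the shoot apical meristem (SAM) of field-grown plants 1 month after transplanting, with 3 libraries of myb110 and 3 of WT, each made from a pool of 20 plants. The leaf blade samples of the series are not analysed here.

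SPL factors are plant-specific transcription factors that bind DNA through a zinc-containing domain, the SBP domain, which recognises a GTAC core. Many of their messages, including those of the 7 genes described here, are targets of the microRNA miR156, which is abundant in young shoots and declines with age, so that SPL factors accumulate as the plant matures. In rice they set tiller number, panicle branching and grain shape, and with the microRNA miR172 and its AP2-type targets they take part in the change from vegetative to reproductive growth.

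Libraries held 14112966 to 18896372 counts in total, and 23167 genes passed the filter on low counts and were tested. The log CPM (counts scaled to the size of the library) of libraries of the same genotype correlated at 0.984 to 0.987 and those of different genotypes at 0.942 to 0.949, and no library stood apart from the others of its genotype. The locus taken here as MYB110 from general knowledge, Os10g0478300, had 0, 0 and 0 counts in the myb110 libraries, against 6, 0 and 1 in the WT libraries, so it gives no check of the labels. Defining meristem genes were present: of 6 meristem markers, 5 were tested, and OSH1, the KNOX homeobox gene of the meristem, had 162 ± 6.09 FPKM in myb110 and 169 ± 3.45 FPKM in WT (mean ± SD, n = 3 each). FPKM are scaled to gene length and library size, so they allow levels of different genes to be compared.

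In the mutant SAM the SPL genes did not move together. SPL14 rose, SPL12 and SPL13 fell, and SPL17, SPL7, SPL16 and SPL3 did not pass the test. All 7 genes had enough counts to be tested, so 1 rose, 2 fell and 4 did not pass at an adjusted p of 0.05 in edgeR's quasi-likelihood test. Over all tested genes 22.6% passed in either direction, 10.9% upward and 11.7% downward. The median log2 change of the 7 genes was -0.13, against 0.0013 over all tested genes. That median is the value of SPL16, which did not pass. The CPM of the genotypes did not overlap for 4 of the 7 genes, which were SPL14, SPL17, SPL13 and SPL12, and this held for 36.1% of all tested genes.

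Leaf markers differed between the genotypes in the same libraries, where 10.9% of all tested genes rose and 11.7% fell. Of 8 mesophyll photosynthesis markers 8 fell, their summed CPM was 156 to 165 in the myb110 libraries and 462 to 496 in the WT libraries, and none was at 0 in any library. With each library left out in turn 6 or 7 of the 8 fell. Of 5 lateral organ markers 2 rose and 3 fell. These counts did not hold with any 1 library left out, in DESeq2 or in limma on FPKM. For example, 0 rose and 2 fell without WT replicate 3, and 1 rose and 1 fell without WT replicate 1. The summed CPM of the 5 was 100.1 to 104 in myb110 and 105 to 109 in WT. Of the 5 tested meristem markers, OSH1 fell by 0.09 ± 0.03 (edgeR adjusted p = 0.0337) and 4 did not pass, and the summed CPM of the 6 was 423 to 450.0 in myb110 and 435 to 442 in WT, with OSH43 at 0 in 1 myb110 library. The OSH1 call did not hold without replicate 2 or 3 of myb110 (edgeR adjusted p = 0.227 and 0.119) or of WT (0.105 and 0.0691) and in limma on FPKM (0.228). Fewer cells of a type and less RNA per cell cannot be told apart in such libraries, and the part of these markers in the SPL changes was not tested.

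**Figure D1:**
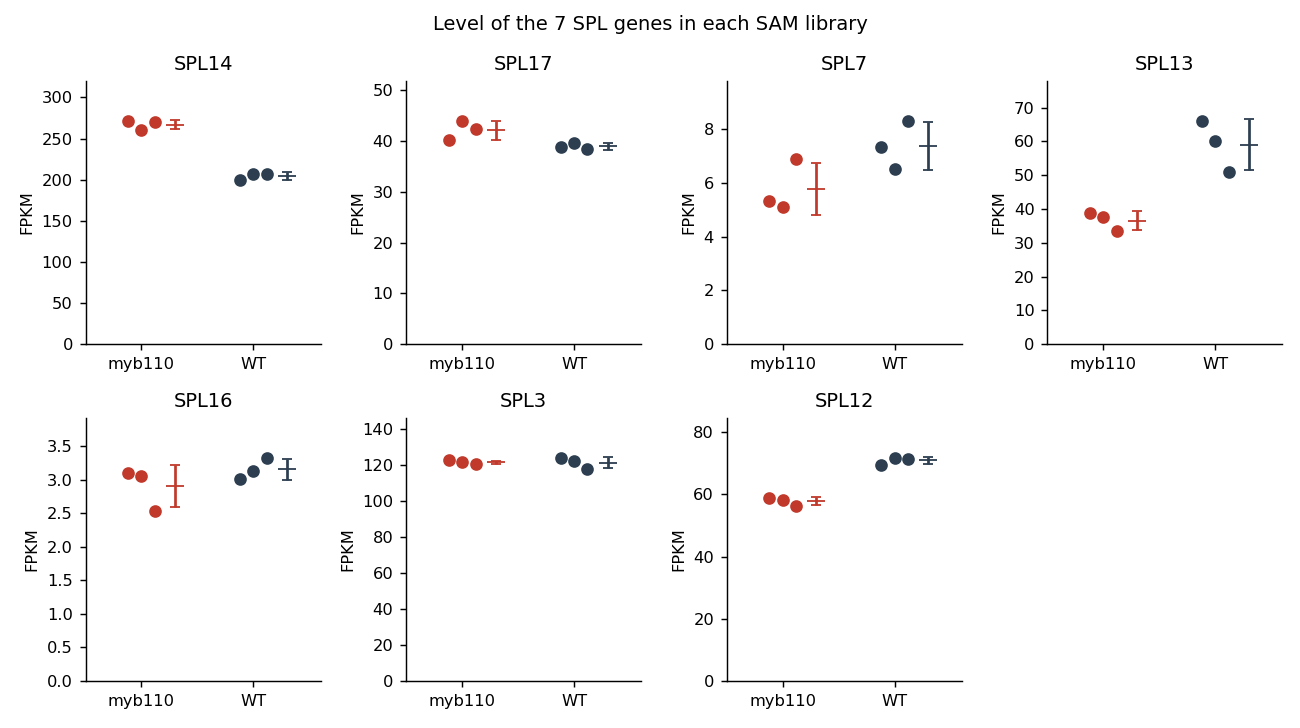
FPKM of the 7 SPL genes in each SAM library, with 3 myb110 libraries on the left and 3 WT libraries on the right of each panel. Points are libraries, and the bar beside them is the mean ± SD. SPL14 lies higher and SPL12 and SPL13 lower in the myb110 libraries with no overlap, whereas the SPL3 points lie at the same height in both genotypes.

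SPL14 (Os08g0509600, chromosome 8 by its locus number), also known as IDEAL PLANT ARCHITECTURE 1, limits tillering and promotes panicle branching. Its level was 271, 260.4 and 269.7 FPKM in the myb110 libraries, against 199, 208 and 207 FPKM in the WT libraries. Each myb110 library lay above each WT library, and the gap between genotypes was far wider than the spread within them. SPL14 rose by 0.39 ± 0.03 (SE) on the log2 scale, a 1.31-fold rise (edgeR adjusted p = 4.81e-14). This is a modest size among the changes in these libraries, since 18.8% of tested genes changed by more in either direction. SPL14 was among the most abundant messages, and 1.01% of tested genes had a higher mean CPM.

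SPL17 (Os09g0491532, chromosome 9) is the closest relative of SPL14 in rice and acts with it on panicle branching. It had 40.2, 43.9 and 42.3 FPKM in the myb110 libraries, against 38.8, 39.6 and 38.4 FPKM in the WT libraries. The myb110 values were all above the WT values, but the gap between the nearest libraries was small. The log2 change was 0.11 ± 0.05 and did not pass (edgeR adjusted p = 0.138), with a 95% interval, not adjusted for the number of genes, of 0.0033 to 0.22. The upper end of that interval lies below the lower end for SPL14, 0.33.

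SPL7 (Os04g0551500, chromosome 4) is a further SPL factor that acts on tillering and panicle form. Its level was low, at 5.33, 5.10 and 6.88 FPKM in the myb110 libraries, against 7.35, 6.51 and 8.30 FPKM in the WT libraries. The third myb110 library lay above the lowest WT library, so the genotypes overlapped. The log2 change was -0.34 ± 0.13 and did not pass (edgeR adjusted p = 0.0636), with an interval of -0.61 to -0.07. It passed without myb110 replicate 3 (edgeR adjusted p = 0.0166), without WT replicate 2 (0.0453), with no filter on low counts (0.0480) and with the replicate number as a block (0.0390), and ranged from 0.0166 to 0.272 over all alternatives.

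SPL13 (Os07g0505200, chromosome 7), known as GLW7 for its effect on grain length and width, had the largest change of the 7 genes. It had 38.7, 37.6 and 33.4 FPKM in the myb110 libraries, against 66.0, 60.0 and 51.0 FPKM in the WT libraries. The genotypes did not overlap, although the WT libraries differed among themselves more for SPL13 than for SPL14, SPL17, SPL12 or SPL3. SPL13 fell by 0.69 ± 0.12 on the log2 scale, a level 1.62-fold lower in myb110 (edgeR adjusted p = 0.0115). The call did not hold without myb110 replicate 2 (edgeR adjusted p = 0.0555) or WT replicate 2 (0.0509), where the log2 changes were -0.71 and -0.68, and the adjusted p went down to 1.02e-23 over the other alternatives. Its deposited counts were not whole in 6 of 6 libraries, and how the fractions arose was not tested. The same held for SPL12 in 4 libraries and SPL7 in 2, whereas SPL14, SPL17, SPL16 and SPL3 had whole counts in each library.

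SPL16 (Os08g0531600, chromosome 8), known as GW8, promotes cell division in the grain hull. It had the lowest level of the 7 genes, with 3.11, 3.05 and 2.54 FPKM in the myb110 libraries, against 3.02, 3.13 and 3.33 FPKM in the WT libraries. The genotypes overlapped. The log2 change was -0.13 ± 0.18 (edgeR adjusted p = 0.655), and its interval of -0.49 to 0.22 leaves room for a fall as large as that of SPL12 or a rise smaller than that of SPL14. With 74 to 98 counts per library, the change was known no more closely than that interval.

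SPL3 (Os02g0139400, chromosome 2) has been linked to crown root development. It had 122, 121 and 121 FPKM in the myb110 libraries, against 124, 122 and 118 FPKM in the WT libraries. The myb110 values fell inside the range of the WT values. The log2 change was 0.0007 ± 0.03 (edgeR adjusted p = 0.989), and its narrow interval of -0.06 to 0.06 does not reach the change of SPL14 or SPL12.

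SPL12 (Os06g0703500, chromosome 6) had 58.8, 58.3 and 56.4 FPKM in the myb110 libraries, against 69.6, 71.7 and 71.5 FPKM in the WT libraries. The genotypes stood apart, and the libraries of each genotype lay close to each other. SPL12 fell by 0.34 ± 0.04 on the log2 scale, a level 1.27-fold lower in myb110 (edgeR adjusted p = 1.05e-08). The fall was 0.29 in limma on FPKM, where it also passed.

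The 7 messages made up a slightly higher sum in the mutant SAM, in other proportions. Their summed FPKM was 539.6, 529.7 and 532 in the myb110 libraries, against 508, 511 and 497 in the WT libraries, without overlap and with no test. SPL14 made up 50.0% ± 0.808 of that sum in myb110 and 40.5% ± 1.16 in WT, and SPL3 made up 22.8% ± 0.142 in myb110 and 24.0% ± 0.339 in WT. SPL12 held 10.6% to 11.0% in the myb110 libraries and 13.7% to 14.4% in the WT libraries. SPL13 held 6.85% ± 0.502 in myb110 and 11.7% ± 1.36 in WT. SPL17, SPL7 and SPL16 held 7.89%, 1.08% and 0.543% in myb110, against 7.71%, 1.46% and 0.625% in WT. These shares depend on the 7 genes chosen. Of the summed FPKM of all 19 family genes, SPL14 held 29.7% in myb110 and 23.5% in WT. SPL15, outside the 7, held 24.0% in myb110 and 23.5% in WT.

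**Figure D2:**
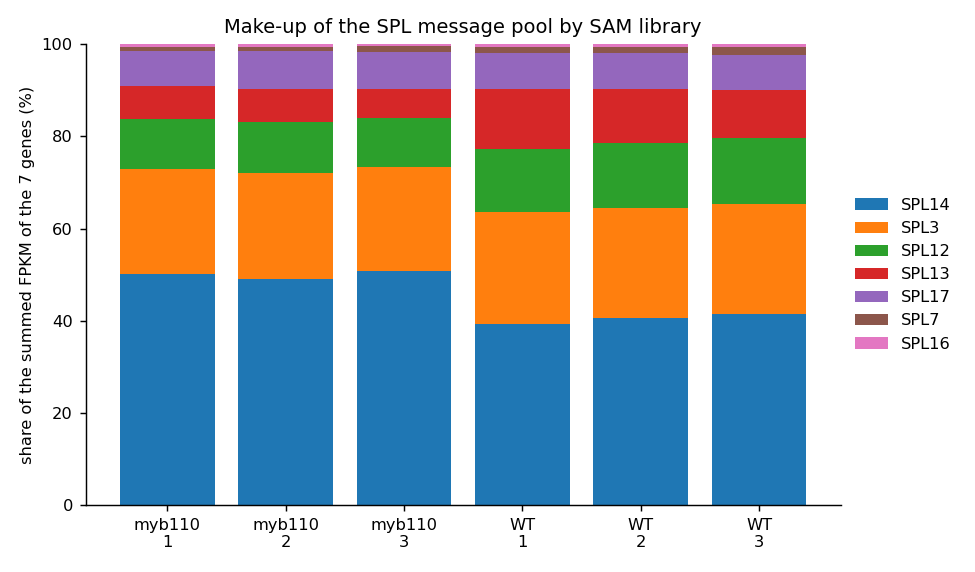
Share of the summed FPKM of the 7 SPL genes that each gene held, as stacked bars that start at 0, with the 3 myb110 libraries on the left and the 3 WT libraries on the right. SPL14 takes 49.2% to 50.7% of the bar in myb110 and 39.3% to 41.6% in WT, and the SPL12 and SPL13 segments are narrower in myb110.

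By mean FPKM the order in myb110 was SPL14, SPL3, SPL12, SPL17, SPL13, SPL7 and SPL16. In WT it was SPL14, SPL3, SPL12, SPL13, SPL17, SPL7 and SPL16. No neighbours in either order overlapped between libraries of a genotype. The order of SPL13 and SPL17 differed between genotypes: SPL17 was 1.15-fold above SPL13 in myb110, whereas SPL13 was 1.52-fold above SPL17 in WT. SPL14 was 2.20-fold above SPL3, the next gene, in myb110 and 1.69-fold above it in WT.

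The ratio of the FPKM of 2 SPL genes within a library does not depend on the scaling of the library, and 4 such pairs were compared between the genotypes. The ratio of SPL14 to its relative SPL17 was 6.36 ± 0.410 in myb110 and 5.25 ± 0.125 in WT. The ratio of SPL14 to SPL7 was 47.1 ± 6.81 in myb110 and 28.0 ± 3.57 in WT. The ratio of SPL3 to SPL12, another pair of close relatives, was 2.10 ± 0.0328 in myb110 and 1.71 ± 0.0660 in WT, and that of SPL16 to SPL13 was 0.0791 ± 0.00267 in myb110 and 0.0544 ± 0.00989 in WT. In each of the 4 pairs the genotypes did not overlap. Each pair held a gene that passed alone, SPL14, SPL12 or SPL13, so the ratios are no separate support for those calls. On the log2 scale the differences between genotypes were 0.27, 0.75, 0.30 and 0.56 in the order given. The two-sided exact permutation p was 0.1 for each pair, also after adjustment over the 4 pairs, and this is the smallest value that 3 libraries against 3 can give.

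Among the other 12 SPL genes 1 passed upward and 3 downward, and 8 missed the threshold. Of all tested genes 10.9% passed upward and 11.7% downward. The median log2 change of these 12 genes was -0.13, the same to 2 decimals as that of the 7 genes. SPL15, the most abundant of them, had 216 ± 1.87 FPKM in myb110 and 205 ± 3.27 FPKM in WT and rose by 0.08 ± 0.03 (edgeR adjusted p = 0.0166). SPL6, which represses the stress response of the endoplasmic reticulum, had 41.7 ± 1.12 FPKM in myb110 and 46.0 ± 0.858 FPKM in WT and fell by 0.13 ± 0.04 (edgeR adjusted p = 0.00748). SPL2 fell by 0.29 ± 0.09 and SPL10, a regulator of leaf hairs, by 0.43 ± 0.15 (edgeR adjusted p = 0.0151 and 0.0346).

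Among these 4 calls, that of SPL6 held when each library was left out in turn. The SPL15 call did not hold without myb110 replicate 3 (edgeR adjusted p = 0.0870), without WT replicate 3 (0.0651) and in limma on FPKM. The SPL2 call did not hold without myb110 replicate 2 (0.0548), WT replicate 1 (0.0522) or WT replicate 3 (0.0678). The SPL10 call did not hold without replicate 1 or 3 of myb110 (0.0668 and 0.149) or of WT (0.135 and 0.0739), in DESeq2 (0.0637) and in limma on log2(FPKM + 0.1) (0.0516). SPL9, with a log2 change of -0.14 ± 0.05, did not pass (edgeR adjusted p = 0.0582) but did without myb110 replicate 2 (0.0261).

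SPL8, also known as LIGULELESS1 and needed for the ligule, the fringe between blade and sheath, had a log2 change of 0.33 ± 0.20 that did not pass. SPL1, SPL4, SPL11, SPL18 and SPL19 had log2 changes of 0.09, -0.14, -0.07, -0.05 and -0.16, none of which passed. SPL5 had the lowest level of the family, 0.551 ± 0.155 FPKM in myb110 and 0.873 ± 0.188 FPKM in WT, and did not pass either. Over the whole family 2 rose, 5 fell and 12 missed the threshold, so 36.8% were called, against 22.6% of all tested genes. The fitted change was above 0 for 6 and below 0 for 13 of the 19, and its median over all tested genes was 0.0013. The family as a set was not tested.

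**Figure D3:**
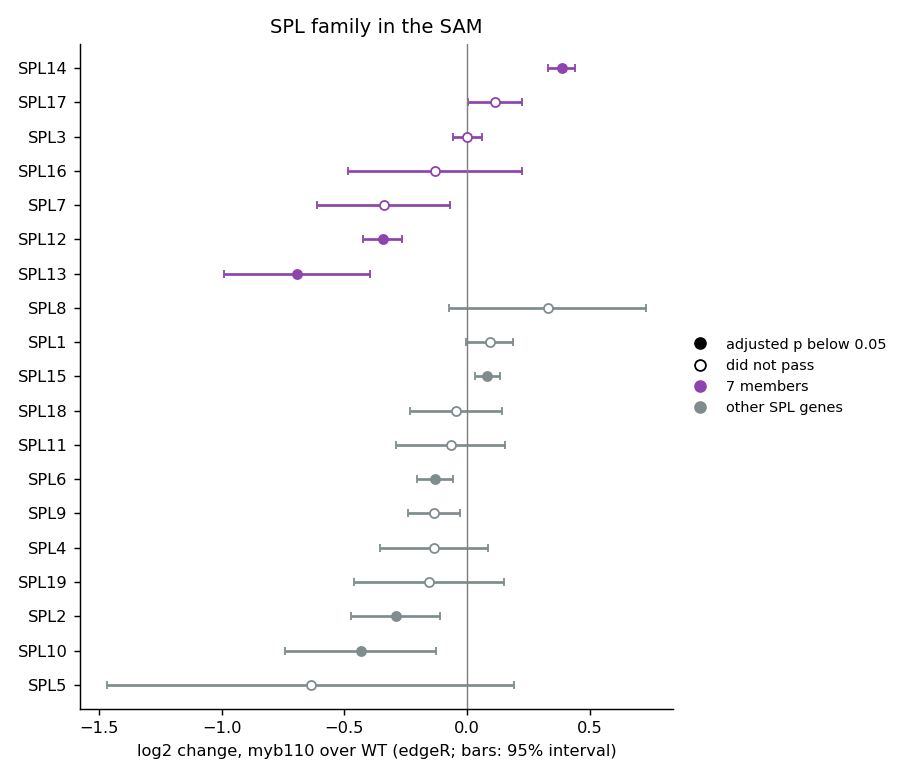
Log2 change of the 19 SPL genes, myb110 over WT, from edgeR, with the 95% interval as bars; filled points passed at an adjusted p of 0.05. SPL14 lies at 0.39 and SPL13 at -0.69, and the interval of SPL3 is narrow and centred on 0.

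Genes that act on the SPL14 protein fell or did not pass. Of 5 genes for partners and regulators of the protein, 2 fell and 3 did not pass, where 11.7% of all tested genes fell. D53, the repressor of strigolactone signalling that binds SPL14, had 30.6, 28.9 and 29.3 FPKM in the myb110 libraries, against 34.3, 35.1 and 34.6 FPKM in the WT libraries, without overlap. It fell by 0.23 ± 0.04 on the log2 scale (edgeR adjusted p = 3.74e-05), with counts that were not whole in 6 of 6 libraries. How these fractions arose, and whether reads of another locus are among them, was not tested. ASP1, a TOPLESS-type co-repressor, fell by 0.10 ± 0.02 in counts (edgeR adjusted p = 0.00218), but its FPKM were 224 ± 2.80 in myb110 and 224 ± 3.13 in WT and it did not pass in limma on FPKM. IPI1, a ubiquitin ligase that acts on SPL14 and that the table names RFI2, had a log2 change of 0.04 ± 0.06 and did not pass. Of 6 genes of strigolactone synthesis and perception, D53 among them, D53 fell and the other 5 did not pass.

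Reported SPL14 targets and other branching regulators moved both ways. The locus listed as DEP1 was left out, because its annotation gives no symbol and names a keratin-associated protein. Whether that annotation and DEP1 are the same gene was not checked, and its values are not given. Of the other 6, 5 were tested, 2 rose, 1 fell and 2 did not pass, where 10.9% of all tested genes rose and 11.7% fell. TB1, the TCP factor that represses tiller outgrowth and is a direct target of SPL14, had 3.44, 4.07 and 3.01 FPKM in the myb110 libraries, against 3.20, 3.35 and 3.66 FPKM in the WT libraries. These ranges overlapped, and the log2 change was 0.03 ± 0.16 (edgeR adjusted p = 0.912, interval -0.29 to 0.35). TAW1, which delays spikelet formation, rose by 0.15 ± 0.03. LAX1, a bHLH factor of axillary meristems, rose by 0.78 ± 0.26, with 167 counts in the 3 myb110 libraries, against 103 counts in the 3 WT libraries. RFL, the rice LEAFY gene, fell by 0.38 ± 0.13.

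The LAX1 call (edgeR adjusted p = 0.0254) did not hold without myb110 replicate 1 or 2 (0.0831 and 0.147), without WT replicate 2 (0.168) and in limma on FPKM. The RFL call (edgeR adjusted p = 0.0263) did not hold without myb110 replicate 1 or 2 (0.0822 and 0.0726), without WT replicate 2 or 3 (0.0745 and 0.133) and in DESeq2 (0.0539). MADS34, a MADS-box gene of the panicle meristem, was below the filter, with 0, 0 and 0 counts in the myb110 libraries, against 2, 2 and 9 in the WT libraries. Against a floor of 3 counts over the myb110 group, it was at least 4.10-fold lower in myb110, taking the 13 WT counts as exact, but at least 1.91-fold lower without WT replicate 3, where 4 WT counts remain. Of the inflorescence MADS-box and TERMINAL FLOWER 1-type genes, 8 of 9 were tested, 1 rose, 4 fell and 3 did not pass. The shares of all tested genes were 10.9% upward and 11.7% downward. MADS14, a MADS-box gene of the flowering meristem, fell by 1.85 ± 0.08 and its relative MADS18 fell by 0.51 ± 0.05. MADS15 fell by 4.41 ± 0.51 in counts and fell by 1.53 in limma on log2(FPKM + 1), a scale that understates changes of low genes. It had 3, 3 and 0 counts in the myb110 libraries, against 44, 52 and 48 in the WT libraries. With each library left out in turn, its log2 change in edgeR ranged from -4.87 to -3.73. MADS20 rose by 1.00 ± 0.23 (edgeR adjusted p = 0.000998).

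The miR172-targeted AP2 genes hold back the reproductive phase and lie downstream of SPL factors in the ageing pathway of Arabidopsis. Of 4 such genes 2 rose and the other 2 did not pass, where 10.9% of all tested genes rose. AP2-5 (Os04g0649100, named after the table) had 48.0, 44.7 and 47.0 FPKM in the myb110 libraries, against 22.3, 24.8 and 24.1 FPKM in the WT libraries. It rose by 0.98 ± 0.06 on the log2 scale (edgeR adjusted p = 1.28e-16), the largest rise among the tested genes of this list. SNB, which promotes the change of the spikelet meristem to a floral meristem, had 20.3, 20.3 and 18.2 FPKM in the myb110 libraries, against 15.1, 13.6 and 14.03 FPKM in the WT libraries, and rose by 0.46 ± 0.07 (edgeR adjusted p = 5.48e-06). IDS1, its relative, had a log2 change of 0.53 ± 0.22 that did not pass (edgeR adjusted p = 0.0757), but did without WT replicate 1 (0.0234). AP2-1 had a log2 change of -0.04 ± 0.13.

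AP2-5 was also the gene whose CPM pattern was most like that of SPL14 among tested genes with a symbol, with Pearson's r of 0.9993 over the 6 libraries. The next were Os08g0395800, annotated as a UPF0481 protein, at 0.9989, the carboxypeptidase-like gene SCPL18 at 0.9976, the F-box gene PP2A13 at 0.9969 and the kinase gene WNK3 at 0.9966. These r are descriptions: the 6 libraries fall into 2 genotypes, and 100 genes besides SPL14 had an r above 0.99. All 5 rose, by 0.38 to 0.98 on the log2 scale, a direction that their choice by r with SPL14 fixed in advance. Among the SPL genes, SPL12 and SPL13 had an r with SPL14 of -0.981 and -0.949, and SPL3 of -0.0234.

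Of 5 genes of the microRNA machinery 2 fell and 3 did not pass, where 11.7% of all tested genes fell. AGO1D, an ARGONAUTE of the group that carries microRNAs, and DCL1, which cuts their precursors, fell by 0.32 ± 0.03 and 0.16 ± 0.04. DCL1, with counts that were not whole in 6 of 6 libraries, did not pass in limma on FPKM (adjusted p = 0.0832). AGO1A, AGO1B and AGO1C had log2 changes of -0.08, 0.05 and 0.05. The microRNAs themselves, miR156 and miR172, are not analysed here.

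**Figure D4:**
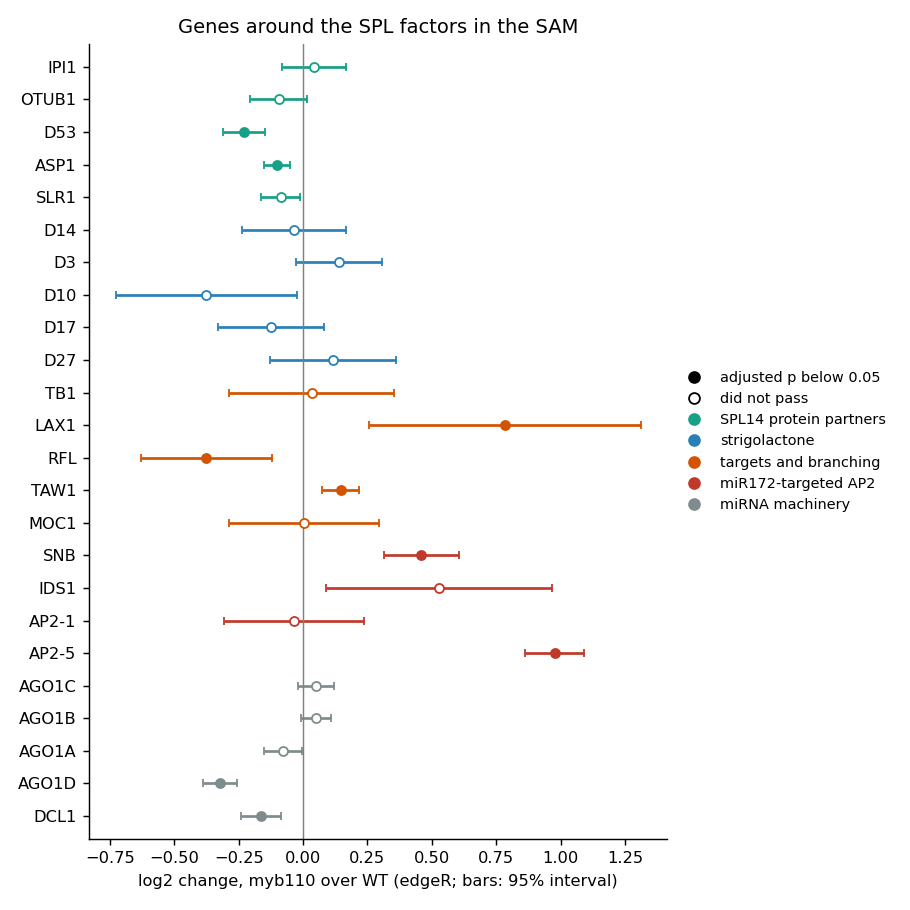
Log2 change of genes around the SPL factors, myb110 over WT, from edgeR, with the 95% interval as bars and colours for the gene lists; filled points passed at an adjusted p of 0.05. AP2-5 at 0.98 and SNB at 0.46 lie to the right, D53 at -0.23 and AGO1D at -0.32 to the left, and TB1 and IPI1 near 0.

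**Figure D5:**
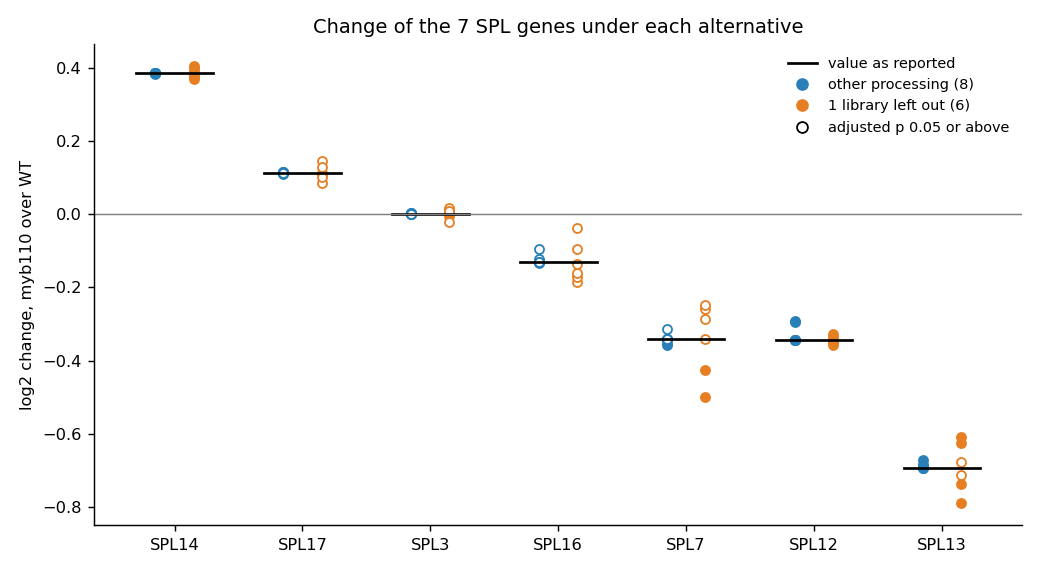
Log2 change of the 7 SPL genes, myb110 over WT, as reported (black line), under 8 other ways of processing (blue) and with 1 of 6 libraries left out (orange); open points did not pass at an adjusted p of 0.05. SPL14 stays between 0.37 and 0.40, whereas SPL7 ranges from -0.50 to -0.25 with filled and open points.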

How the data were processed

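Poly(A)-selected RNA was sequenced, per the labels' protocols. The submitters' processing notes name fastp, a read cleaner. No aligner, counter, build or gene annotation was named there, so these steps are not known here. The deposited values are estimated counts per gene, per the file headers, of which 12.3% to 13.2% per library were not whole, and FPKM, also per the file headers. Each column was assigned by its genotype name and number, and its tissue by the name of the table. In all, 24 columns of per-sample values that match no labelled genotype were not used, 6 in the SAM table and 18 in the blade table, so the blade and tissue-by-genotype comparisons were not made.

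Counts were rounded and filtered by filterByExpr (minimum count 10). TMM factors were 0.998 to 1.00, and myb110 was tested against WT by edgeR's robust quasi-likelihood test over all 23167 kept genes (edgeR 4.0.16, R 4.3.3, Benjamini-Hochberg, threshold 0.05). Each standard error is the size of the log2 change divided by the root of its F value, and the biological coefficient of variation was 0.0465. Alternatives were RLE or no scaling, no filter, DESeq2 1.42.0, limma 3.58.1 on log2(FPKM + 0.1) or log2(FPKM + 1), a replicate block, non-robust dispersion and each library left out. The steps were tested on simulated counts.

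The SPL genes and the lists were chosen with earlier results of these data known. The 19 SPL genes are named whatever their values, and other lists by lowest p, up to 3 each way, plus D53, IPI1, TB1, DEP1, MADS34, MADS14 and MADS15, and the 5 genes with a symbol most correlated with SPL14. Named beyond that rule, after their values were seen, were AP2-1, IDS1, AGO1A, AGO1B, AGO1C, OSH1 and OSH43. The labels name pools but not separate fields or days, so p-values reflect only how these pools vary. Replicate libraries differed by more than counting noise (chi-square of 2.16 to 2.64 per gene). The floor for MADS34 covers counting error only. No strand-marking step is described, so overlapping and antisense genes are uncertain.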

Additional observations from a re-analysis of the deposited data

How the results depend on the processing

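SPL14 and SPL12 passed in the same direction under each of the 14 alternatives, with log2 changes of 0.37 to 0.40 and -0.36 to -0.29. SPL17, SPL16 and SPL3 did not pass under any of the 14. SPL7 passed with no filter (log2 change -0.34) and with the replicate block (-0.36). With each library left out in turn, SPL7 ranged from -0.50 to -0.25 and SPL13 from -0.79 to -0.61, and the number of SPL genes that fell ranged from 1 to 3. Without myb110 replicate 2 it was 1. The cause was not tested. The count of all called genes was 4052 to 5584 over the alternatives, against 5233 as reported, and no scaling moved the median log2 change of all genes by as much as 0.1. Replicate numbers are shared between genotypes, but over all tested genes same-numbered libraries did not deviate together (correlations of -0.0469, -0.0407 and 0.0107 for numbers 1, 2 and 3). These correlations do not speak for single genes. For numbers 1, 2 and 3, SPL13 CPM was 65.4, 63.4 and 56.1 in myb110 and 111, 101 and 85.8 in WT. With the replicate block SPL13 fell by 0.68 ± 0.05 (edgeR adjusted p = 4.5e-12), and the part of the replicate number was not tested. The replicate block gave 4976 calls. Libraries did not correlate best with their own number for numbers 1 and 2. SPL16 had 74 to 98 counts and SPL5 8 to 26 counts per library, and their changes were known no more closely than their 95% intervals. That of SPL5 ran from -1.47 to 0.19 on the log2 scale.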

Other observations

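SPL13 CPM varied between myb110 pools by a coefficient of variation of 7.90%, where counting noise alone gives 3.22%, and between WT pools by 12.9%, where counting noise gives 2.47%. SPL14 CPM varied by 2.25% in myb110 and 2.06% in WT, and SPL12 by 2.32% in myb110 and 0.752% in WT. SPL7 CPM varied by 16.7% in myb110, where counting noise gives 8.43%.

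The tested loci next to each SPL gene, 10 on each side by locus number, were counted as well. Of 20 neighbours each, 8 were called around SPL7, 7 around SPL16, 5 around SPL17, 4 around SPL3, 3 around SPL13, 2 around SPL14 and 1 around SPL12. Around all 7 SPL genes 18 of 140 neighbours rose and 12 fell, which is 21.4% called, against 22.6% of all tested genes.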
